A study of Mus musculus with 2 samples.

Results

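DNA replication in S phase runs on a shared set of genes, and 41 of them were followed here through the cell classes of the early postnatal mouse pallium, the dorsal forebrain with the cerebral cortex. The members were chosen by gene symbol and matched 41 of the 32285 genes in the files. They comprised the 6 subunits of the MCM helicase, 10 genes of origin licensing and firing, 6 of the sliding clamp and its loader, 8 of the DNA polymerases and primase, 2 of Okazaki fragment joining, 2 of single-strand binding, 5 of nucleotide supply, and Uhrf1 and Slbp, which act on newly made chromatin and on histone mRNA. All are protein-coding genes on 14 chromosomes of GRCm38, 40 of them autosomal and Pola1 on the X.

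Both libraries came from wild-type mice whose cells were dated at embryonic day 12 with EdU, a nucleoside that cells in S phase take up in place of thymidine, and whose brains were taken at postnatal day 3. The pallium was dissected and pooled, and the brightest 10% of EdU-positive cells with no uptake of the dead-cell dye PI were sorted and profiled with droplet 3' single-cell RNA sequencing. All samples belong to 1 group with 2 libraries, replicate 1 and replicate 2, and there was no treatment or untreated control. Comparisons were therefore made between cell classes within these libraries. The p-values rest on how differences between cell groups vary between these 2 libraries after their overall shift is removed. The labels do not say whether the pools came from separate animals, so that spread may be technical.

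In a dividing cell the origin recognition complex, Cdc6 and Cdt1 load the MCM helicase onto DNA before S phase. Cdc45, the GINS complex and Mcm10 then switch the helicase on, primase and the polymerases copy the strands, and Pcna, loaded by replication factor C, holds the polymerases on DNA. Ribonucleotide reductase, thymidylate synthase, thymidine kinase and dUTPase supply the nucleotides. Many of these genes are textbook targets of E2F transcription factors and are high in late G1 and S phase, whereas genes of G2 and mitosis peak later. In the pallium around birth, oligodendrocyte precursor cells (OPCs), astroglia, immature GABAergic cells, Eomes-positive intermediate progenitors and microglia can all divide, while projection neurons are postmitotic.

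Letters that match the E2F consensus were present in the window around the start of 14 of the 34 members with a promoter in the RefSeq table for GRCm38.p6, or 41.2%. Each window ran from 250 bases before to 50 bases after the start, and the letters searched on both strands were TTTCCCGC, TTTCGCGC, TTTGCCGC and TTTGGCGC. The same letters stood in 12 of 40 other replication genes with a promoter (30%), in 1 of 17 G2 and mitosis genes (5.88%) and in 575 of 17492 protein-coding genes (3.29%). A second element searched for was CHR, written TTTGAA or TTCGAA, which is known from promoters of mitotic genes. It was in 7 of 34 members (20.6%), in 13 of 17 G2 and mitosis genes (76.5%) and in 20.2% of all protein-coding genes. CCAAT was in 22 of 34 members (64.7%), 14 of 17 G2 and mitosis genes (82.4%) and 42.3% of all. These are matches of letters in a window and were not tested as binding sites. The 3 stretches printed next, 5′ to 3′ on the strand of each gene and from RefSeq on GRCm38.p6, show the E2F letters in capitals in front of 2 helicase genes and the catalytic subunit of polymerase alpha. They lie upstream of each gene's first annotated base, at chr8:75109326-75109397 on the plus strand for Mcm5, chr1:128359715-128359845 on the minus strand for Mcm6 and chrX:93632256-93632323 on the minus strand for Pola1. In Mcm5 and in the first block of Mcm6, matches on the 2 strands overlap.
Mcm5: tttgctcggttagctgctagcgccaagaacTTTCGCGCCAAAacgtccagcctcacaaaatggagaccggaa
Mcm6: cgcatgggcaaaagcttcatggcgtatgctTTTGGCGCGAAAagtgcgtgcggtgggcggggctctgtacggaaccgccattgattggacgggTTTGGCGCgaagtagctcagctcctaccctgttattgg
Pola1: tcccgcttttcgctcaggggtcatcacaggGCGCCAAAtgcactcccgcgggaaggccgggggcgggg

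After barcodes with fewer than 500 genes or over 10% mitochondrial UMIs (unique molecular identifiers, the count of captured transcripts) were removed, 11228 and 10965 cells were left, with medians of 7542.5 and 8523 UMIs. The libraries shared 40 barcode sequences after filtering. Classes were set by UMIs of gate genes, namely Pdgfra for OPCs, Slc1a3 for astroglia, Dlx1 and Dlx2 for GABAergic cells, Eomes for progenitors, Neurod2 and Neurod6 for neurons and C1qa for microglia. The summed markers of each name, with the gate genes among them, were higher in its own class than in any other class. Sums without the gate genes were not made, so this is no independent check of the classes. The summed OPC markers reached 4891 and 4938 CPM (counts per 1000000 UMIs of the class's summed library) in OPCs with Mki67, and the microglial markers 12807 and 13476 CPM in microglia with Mki67 against at most 7.94 CPM in any class but microglia. Eomes progenitors were less distinct: in their Mki67- cells neuron markers summed to 1169.8 and 1406 CPM and markers of their own name to 1018 and 868 CPM, against 607 and 781 CPM and 1501 and 1311 CPM in their Mki67+ cells. Cells that also passed the Neurod2 and Neurod6 gate were kept in this class. Each class was split by Mki67, which encodes the proliferation antigen Ki-67, into cells with at least 1 Mki67 UMI (Mki67+) and cells with none (Mki67-). Mki67+ cells numbered 705 and 794 among OPCs, 593 and 569 among astroglia, 469 and 494 among GABAergic cells, 39 and 46 among microglia, 32 and 29 among neurons, and 25 and 31 among Eomes progenitors. Detection of a UMI depends on depth. The median was 12175 and 13152 UMIs in Mki67+ OPCs against 8083 and 8901 in Mki67- OPCs, so levels were compared as CPM of summed counts and shares of cells after thinning each cell to 2000 UMIs. Class and Mki67 state were kept from full depth, so thinning does not undo the effect of depth on that split.

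Together the 41 members made up 3888 ± 54.7 CPM in Mki67+ OPCs (SD, n = 2 libraries, as for all values written with ±, except where a value is given with its SE). In Mki67- OPCs they made up 1408 ± 33.1 CPM. Mki67+ astroglia had 3720 ± 106 CPM and Mki67- astroglia 1280 ± 42.4 CPM. In GABAergic cells the sums were 4873 ± 167 and 1839 ± 101 CPM. The Mki67+ sum was therefore 2.69 and 2.84 times the Mki67- sum in OPCs, 2.90 and 2.92 times in astroglia and 2.61 and 2.69 times in GABAergic cells, in replicates 1 and 2. The libraries lay close together in these 3 classes, and no Mki67+ sum overlapped a Mki67- sum.

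The smaller classes spread more. Mki67+ Eomes progenitors had the highest mean sum, 5303 ± 686 CPM, against 1157 ± 229 CPM in Mki67- cells of the class, and the ratio was 3.65 in replicate 1 and 5.81 in replicate 2. Microglia had 2225 ± 636 CPM with Mki67 and 1105 ± 129 CPM without. Neurons with a Mki67 UMI had 1593 ± 255 CPM and those without had 942 ± 8.06 CPM, the lowest mean sum of the 12 groups. Among Mki67+ groups, GABAergic cells, OPCs, astroglia, microglia and neurons fell in that order in both libraries. Eomes progenitors stood below GABAergic cells in replicate 1 and above them in replicate 2, and OPCs and astroglia differed by little more than their spread.

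**Figure D1:**
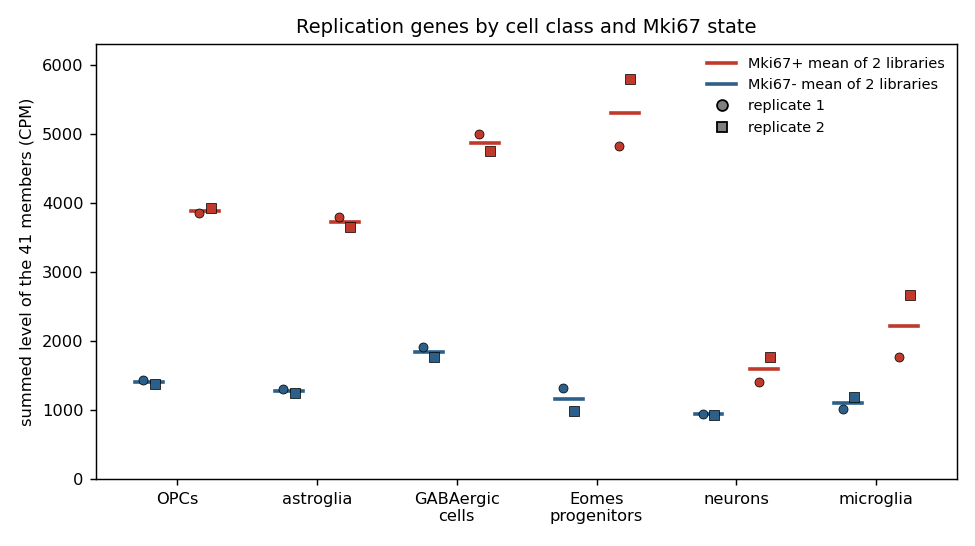
The y axis gives the summed level of the 41 members in CPM for each class, with Mki67- cells in blue and Mki67+ cells in red; circles are replicate 1, squares replicate 2 and lines the means. OPCs, astroglia and GABAergic cells show tight pairs near 1408, 1280 and 1839 CPM without Mki67 and 3888, 3720 and 4873 CPM with it, while the pairs of Mki67+ Eomes progenitors, microglia and neurons are spread.

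Counted per cell at 2000 UMIs, at least 3 of the 41 members were detected in 84.2% ± 4.63 of Mki67+ GABAergic cells, 73.3% ± 0.890 of Mki67+ OPCs and 63.9% ± 1.28 of Mki67+ astroglia. The share was 39.8% ± 0.328 in Mki67- GABAergic cells and 34.5% ± 0.214 in Mki67- OPCs. Mki67- projection neurons, as postmitotic cells, give the background, 27.0% ± 0.339. Mki67- astroglia, at 27.3% ± 1.24, and Mki67- microglia, at 27.8% ± 5.97, were not apart from that background in this share. The summed level of the members in the thinned counts was higher in Mki67- astroglia, at 1131 and 1151 CPM, than in Mki67- neurons, at 946 and 943 CPM. In Mki67- microglia it was 882 and 1286 CPM. Median depths before thinning were 5932 and 6819 UMIs in Mki67- neurons, and without thinning the same share was 76.9% and 84.5% there.

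The first set of comparisons asked which members were higher in Mki67+ than in Mki67- cells of the same class, in edgeR's quasi-likelihood test across 14866 genes with Benjamini-Hochberg adjustment at 0.05. All 41 members were called higher and none lower in OPCs, in astroglia and in GABAergic cells, where 12.5%, 22.9% and 17.0% of all genes tested were called higher and 16.5%, 20.4% and 14.5% lower. Their median log2 fold change was 1.45 in OPCs, 1.63 in astroglia and 1.38 in GABAergic cells, against -0.07, -0.02 and -0.02 over all genes tested. In Eomes progenitors 39 of 41 were higher and none lower (6.28% and 5.22% of all genes), with a median of 2.40. On counts thinned to 2000 UMIs 16 were higher, and genes called higher fell from 933 of 14866 tested to 200 of 12453. Neuron markers were lower in the Mki67+ than in the Mki67- cells of that class, and their part in this result was not tested. Orc1 and Gins4 were not called there, at 2.61 (SE 1.20, adjusted p = 0.179) and 0.64 (SE 0.39, adjusted p = 0.358). In microglia 16 were higher and none lower (1.67% and 2.37% of all genes). On thinned counts 2 were higher there, and genes called higher fell from 249 of 14866 tested to 47 of 12453. In neurons 6 were higher and none lower (2.63% and 2.73%).

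**Figure D2:**
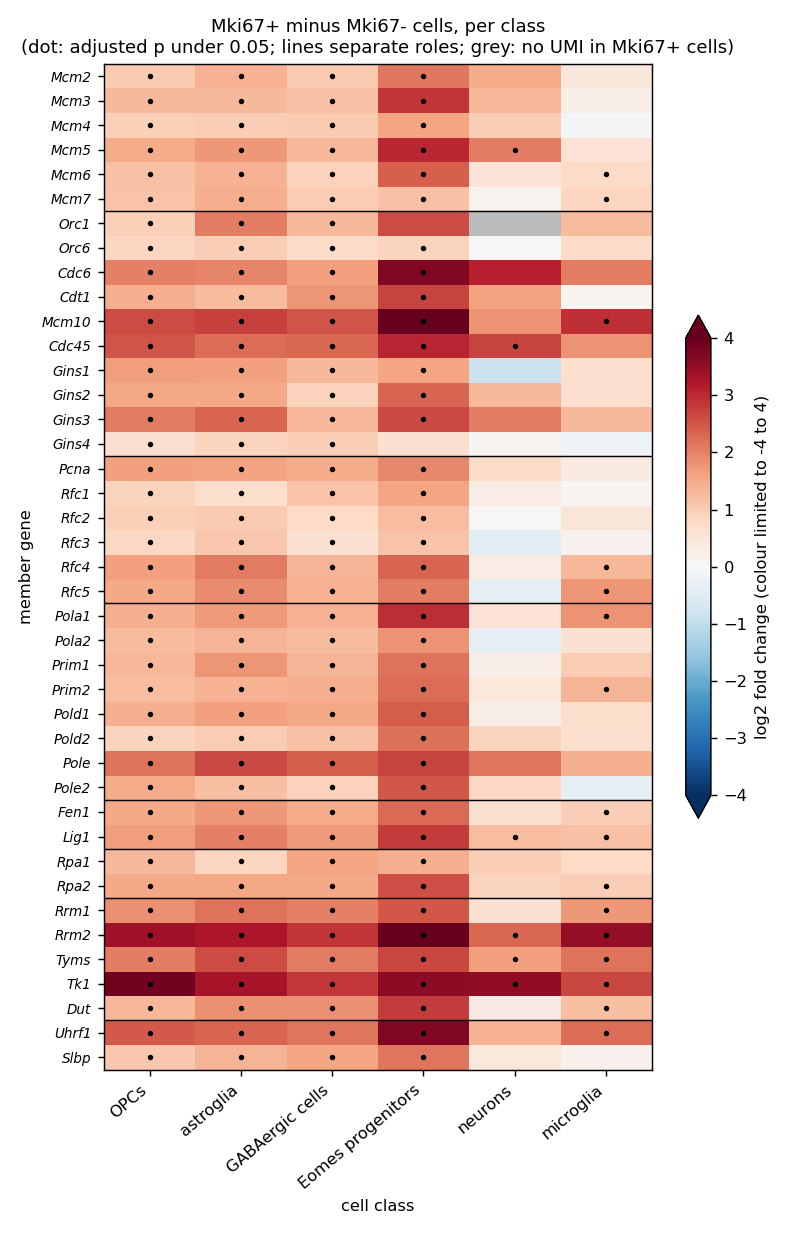
Colour gives the log2 fold change of Mki67+ over Mki67- cells for each of the 41 members (y axis, grouped by role) in the 6 classes (x axis), with a dot where the adjusted p was under 0.05; colour is limited to the range from -4 to 4, and grey marks Orc1 in neurons, which had no UMI in Mki67+ cells. OPCs, astroglia and GABAergic cells carry 41 dots each, Eomes progenitors 39, microglia 16 and neurons 6.

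The helicase subunits rose moderately. In OPCs their log2 fold changes ranged from 0.97 to 1.47. Mcm6 stood at 153.9 and 159.3 CPM in Mki67+ OPCs and at 68.1 and 69.5 CPM in Mki67- OPCs, a log2 fold change of 1.17 (SE 0.06, edgeR adjusted p = 1.16e-19). The levels of replicates 1 and 2 did not overlap between the states. For Mcm7, 126.8 and 131.2 CPM in Mki67+ OPCs stood against 57.8 and 57.6 CPM. Its exons overlap those of Ap4m1 and Cops6 on the other strand, so its counts are uncertain, as no source used here gives the strand setting of the counting. The same holds for Orc1, Orc6, Cdc45, Gins2, Rfc2, Rfc4, Rfc5, Pole, Fen1, Lig1 and Tk1.

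Genes of licensing and firing covered a wide range in OPCs, from 0.69 for Gins4 to 2.62 for Mcm10, which helps to open the helicase. Cdc45, which joins the MCM ring and the GINS complex into the active helicase, was at 31.2 and 36.2 CPM in Mki67+ OPCs and at 6.5 and 5.2 CPM in Mki67- OPCs, a log2 fold change of 2.52 (SE 0.11, edgeR adjusted p = 7.58e-22). Cdc6, which loads the helicase, rose by 2.02 (SE 0.12). Gins2, a GINS subunit, rose by 1.56 (SE 0.10). Orc6, a small subunit of the origin recognition complex, moved least after Gins4 in this role, at 0.86 (SE 0.07).

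The clamp Pcna was measured at 260.6 and 274.6 CPM in Mki67+ OPCs against 86.0 and 84.6 CPM in Mki67- OPCs, a log2 fold change of 1.63 (SE 0.08). Its values were 1.62 (SE 0.08) in astroglia, 1.48 (SE 0.09) in GABAergic cells and 1.92 (SE 0.20) in Eomes progenitors. In microglia the Pcna difference was 0.34 (SE 0.19, edgeR adjusted p = 0.405) and the levels overlapped, with 129.5 and 194.5 CPM in Mki67+ cells and 98.5 and 127.3 CPM in Mki67- cells. The loader subunits Rfc2 and Rfc3 changed less than Pcna in OPCs, at 0.94 (SE 0.06) and 0.82 (SE 0.06).

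Among polymerase genes Pole, the catalytic subunit of the leading-strand polymerase epsilon, had the largest change in OPCs, 2.18 (SE 0.10). The primase subunits Prim1 and Prim2, which make the RNA primers, rose by 1.33 (SE 0.07) and 1.24 (SE 0.07). Lig1, the ligase that seals Okazaki fragments, was called higher in all 6 classes, by 1.69 in OPCs, 2.01 in astroglia, 1.71 in GABAergic cells, 2.81 in Eomes progenitors, 1.17 in microglia and 1.24 in neurons. For the last of these the call came close to the threshold (edgeR adjusted p = 0.048), and on counts thinned to 2000 UMIs the value had the opposite sign, -0.43. Fen1, the nuclease that trims Okazaki fragments, rose by 1.51 (SE 0.08) in OPCs. The single-strand binding genes Rpa1 and Rpa2 rose by 1.31 and 1.51 in OPCs.

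Among the 8 roles, nucleotide supply had the highest median log2 fold change in OPCs, astroglia and GABAergic cells, at 2.03, 2.60 and 2.08. Rrm2, the regulated subunit of ribonucleotide reductase, was at 244.1 and 254.1 CPM in Mki67+ OPCs and at 25.2 and 22.1 CPM in Mki67- OPCs, a log2 fold change of 3.38 (SE 0.09, edgeR adjusted p = 1.74e-29). In GABAergic cells its levels were 506.4 and 459.4 CPM against 79.1 and 64.9 CPM. In microglia, where all 5 nucleotide supply genes were called, Rrm2 differed by 3.52 (SE 0.39, edgeR adjusted p = 2.28e-08), from 2.8 and 9.9 CPM to 61.7 and 115.9 CPM. Tk1, the S phase thymidine kinase, had the largest value of all members in OPCs, 3.85 (SE 0.12), with 56.2 and 56.5 CPM against 4.3 and 3.5 CPM. Dut, the dUTPase that keeps uracil out of DNA, was abundant in both states and rose by 1.32 (SE 0.06) in OPCs and 1.83 (SE 0.08) in GABAergic cells. Uhrf1, which recruits the maintenance DNA methyltransferase to newly copied DNA, rose by 2.45 (SE 0.08) in OPCs, and Slbp, which binds the stem-loop of histone mRNA, by 1.08 (SE 0.07).

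In neurons the 6 members called were Mcm5, Cdc45, Lig1, Rrm2, Tyms and Tk1. Rrm2 had 72.7 and 56.8 CPM in Mki67+ neurons against 11.7 and 11.3 CPM (log2 fold change 2.28, SE 0.47, edgeR adjusted p = 0.00143). Tk1 had 16.1 and 32.5 CPM against 1.9 and 1.7 CPM. These groups hold few cells, and markers of other cells moved with them: summed endothelial markers were at 0 CPM in replicate 1 and 1368 CPM in replicate 2 of Mki67+ neurons, against 0.627 and 1.13 CPM in Mki67- neurons, and mural markers at 0 and 905 CPM. Their part in the result was not tested. No member was called in neurons on counts thinned to 2000 UMIs, where 19 of 12453 genes tested were called higher. With gates at 3 UMIs 1 member was, beside 39 of 14810 genes. In Mki67+ Eomes progenitors, 18 of the 25 cells of replicate 1 were left after marked doublets were removed, and the group was then too small to test.

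Of 52 other genes of replication, its regulation and replication-coupled repair, 46 were called higher and 1 lower in OPCs, 49 and 1 in astroglia, and 46 and 1 in GABAergic cells. The largest changes in OPCs were in E2f8 and E2f7, repressors of the E2F family, at 4.09 (SE 0.15) and 3.52 (SE 0.13), followed by the histone chaperone Asf1b at 3.36 (SE 0.17) and the repair gene Brca1 at 3.05 (SE 0.09). The 1 gene called lower in each of these classes was Pold4, the smallest subunit of polymerase delta, which fell by 0.60 (SE 0.09) in OPCs, by 0.66 (SE 0.10) in astroglia and by 0.66 (SE 0.17) in GABAergic cells. Pold4 was picked out after its values were seen. All 20 G2 and mitosis genes were called higher in each class but neurons, where 13 were, and their median log2 fold change in OPCs was 4.57.

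Members were also described by the Mki67 count of the cell. Cells of the 3 large classes were divided by 0, 1, 2 to 4 and 5 or more Mki67 UMIs, and the values are a description with no test. From 0 to 1 UMI, 40 of 41 members in OPCs, 41 in astroglia and 40 in GABAergic cells were higher in both libraries. At 5 or more against 2 to 4, 10 members were higher in both libraries and 11 lower in OPCs, 17 and 11 in astroglia, and 5 and 29 in GABAergic cells. The 2 libraries did not share a direction for 20, 13 and 7 members. Shares over all genes were not computed for either step, so these counts cannot be set against genes at large. The helicase sum in GABAergic cells went from 366 and 374 CPM at 0 UMIs to 821 and 848 CPM at 2 to 4 and 654 and 707 CPM at 5 or more. All 6 Mcm genes were lower in the last step there in both libraries. In OPCs the helicase sum was 724 and 940 CPM at 2 to 4 UMIs and 701 and 688 CPM at 5 or more. Mcm2, Mcm3 and Mcm6 were the helicase genes that were lower in both libraries of that class. Median depth moved with these bins, from 11315 and 11831 UMIs at 2 to 4 to 14961 and 15887 at 5 or more in OPCs, and its part was not tested.

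Nucleotide supply behaved otherwise in OPCs and astroglia. Its sum was 893 and 926 CPM at 2 to 4 Mki67 UMIs and 1144 and 1109 CPM at 5 or more in OPCs, and 1093 and 919 against 1271 and 1244 CPM in astroglia. In GABAergic cells it was 1777 and 1651 against 1609 and 1550 CPM. Mcm10, Pole, Rrm1 and Rfc1 were higher at 5 or more in both libraries of OPCs and GABAergic cells. Mcm2, Mcm6, Gins2, Rfc2, Rfc3 and Pola2 were lower in both libraries of all 3 classes. G2 and mitosis genes went up through every bin, from 157 and 145 CPM at 0 to 4970 and 4974 CPM at 5 or more in OPCs.

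**Figure D3:**
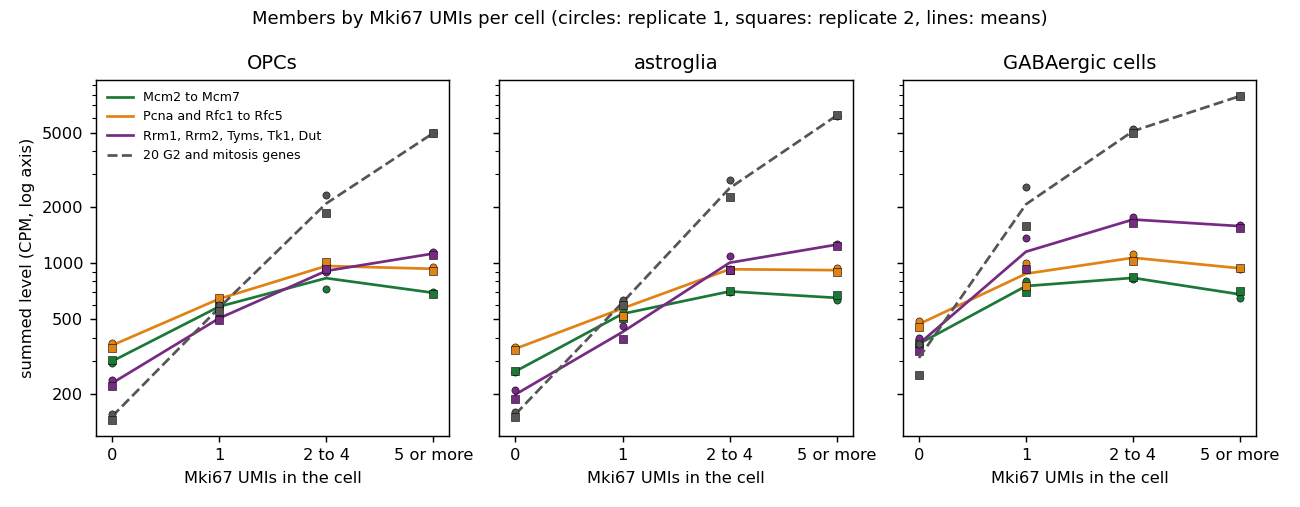
Summed levels in CPM on a log axis against the number of Mki67 UMIs per cell, in OPCs, astroglia and GABAergic cells, for Mcm2 to Mcm7, Pcna with Rfc1 to Rfc5, the 5 nucleotide supply genes and 20 G2 and mitosis genes; circles are replicate 1, squares replicate 2 and lines their means. The helicase line is lower at 5 or more than at 2 to 4 in each class on average, most in GABAergic cells, while the dashed G2 and mitosis line goes on to 4970 and 4974 CPM in OPCs and 7858 and 7870 CPM in GABAergic cells.

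Mki67- cells were next compared with Mki67- neurons, which asks how much of the replication program is held by cells without the proliferation mark. In OPCs 32 members were called higher and 2 lower, while 33.2% and 28.6% of all genes tested were called in those directions. In astroglia 27 were higher and 5 lower (35.5% and 33.0% of all genes), and in GABAergic cells 38 were higher and none lower (20.8% of all genes called higher). The median log2 fold changes were 0.95, 0.72 and 1.35, against 0.05, 0.03 and 0.03 over all genes. On counts thinned to 2000 UMIs, 16 members were called higher in astroglia, beside 3377 of the 12453 genes tested. The G2 and mitosis sum in Mki67- GABAergic cells was 311 ± 81.9 CPM against 113 ± 1.62 CPM in Mki67- neurons. Whether cells in cycle without a captured Mki67 transcript set part of the difference was not tested.

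Of the 8 roles, the helicase had the highest median log2 fold change in each class, 2.12 in OPCs, 2.05 in astroglia and 2.16 in GABAergic cells. In GABAergic cells licensing and firing was level with it, at 2.14. Mcm2 was at 32.6 and 36.1 CPM in Mki67- OPCs, 26.1 and 27.7 CPM in Mki67- astroglia and 32.3 and 39.2 CPM in Mki67- GABAergic cells, but at 5.2 and 4.9 CPM in Mki67- neurons. Its log2 fold change was 2.71 (SE 0.17, edgeR adjusted p = 4.79e-17) in OPCs. Mcm3, with 47.4 and 51.0 CPM in Mki67- OPCs and 7.5 and 7.9 CPM in neurons, differed by 2.62 (SE 0.16). Mcm5, Cdc6 and Cdt1 differed by 2.50 (SE 0.15), 2.70 (SE 0.39) and 2.45 (SE 0.25) in OPCs. In the thinned data Mcm3 was detected in 6.68% and 8.08% of Mki67- OPCs and in 1.89% and 1.74% of Mki67- neurons. Uhrf1 was the largest in GABAergic cells, at 3.24 (SE 0.23), and stood at 2.79 (SE 0.21) in astroglia and 2.28 (SE 0.22) in OPCs. Members of other roles were among the largest differences too. Pole2, a subunit of polymerase epsilon, differed by 2.53 (SE 0.27) and Tk1 by 2.16 (SE 0.34) in astroglia. In GABAergic cells Rrm2 differed by 2.72 (SE 0.18), Tk1 by 2.66 (SE 0.38) and Mcm10 by 2.56 (SE 0.53). The licensing genes had few UMIs in Mki67- neurons, 2 and 8 for Cdc6, 3 and 7 for Mcm10 and 1 and 3 for Orc1. Orc1 stood at 1.90 and 2.04 CPM in Mki67- OPCs and at 0.209 and 0.563 CPM in neurons.

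Within the same helicase, Mcm7 went the other way. It was at 93.2 and 85.2 CPM in Mki67- neurons, 57.8 and 57.6 CPM in Mki67- OPCs and 52.9 and 48.8 CPM in Mki67- astroglia, a log2 fold change of -0.68 (SE 0.07) and -0.72 (SE 0.07). In Mki67- GABAergic cells Mcm7 was higher than in neurons, at 128.4 and 121.2 CPM. Gins1, a GINS subunit with no overlapping exon of another gene, was also lower in OPCs, with 9.1 and 10.1 CPM against 20.1 and 24 CPM in neurons (log2 fold change -1.25, SE 0.14, edgeR adjusted p = 2.01e-10), and in astroglia, at -0.83 (SE 0.14). Orc6, Rfc3 and Prim1 were lower in astroglia as well, at -0.26, -0.42 and -0.41. Pcna and Dut, both abundant, were not called in OPCs, at 0.18 (SE 0.10, adjusted p = 0.115) and 0.16 (SE 0.08, adjusted p = 0.079). Between Mki67- OPCs and Mki67- astroglia, 13 members were higher and 12 lower, close to the shares of all genes (31.8% and 30.2%). Log2 fold changes were -1.11 (SE 0.17) for Tk1, -0.90 (SE 0.08) for Rpa1 and 0.61 (SE 0.08) for Prim1. Rrm2, Pole2 and Uhrf1 were also lower in OPCs, at -0.63, -0.63 and -0.50, and Fen1 and Mcm6 higher, at 0.54 and 0.45.

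**Figure D4:**
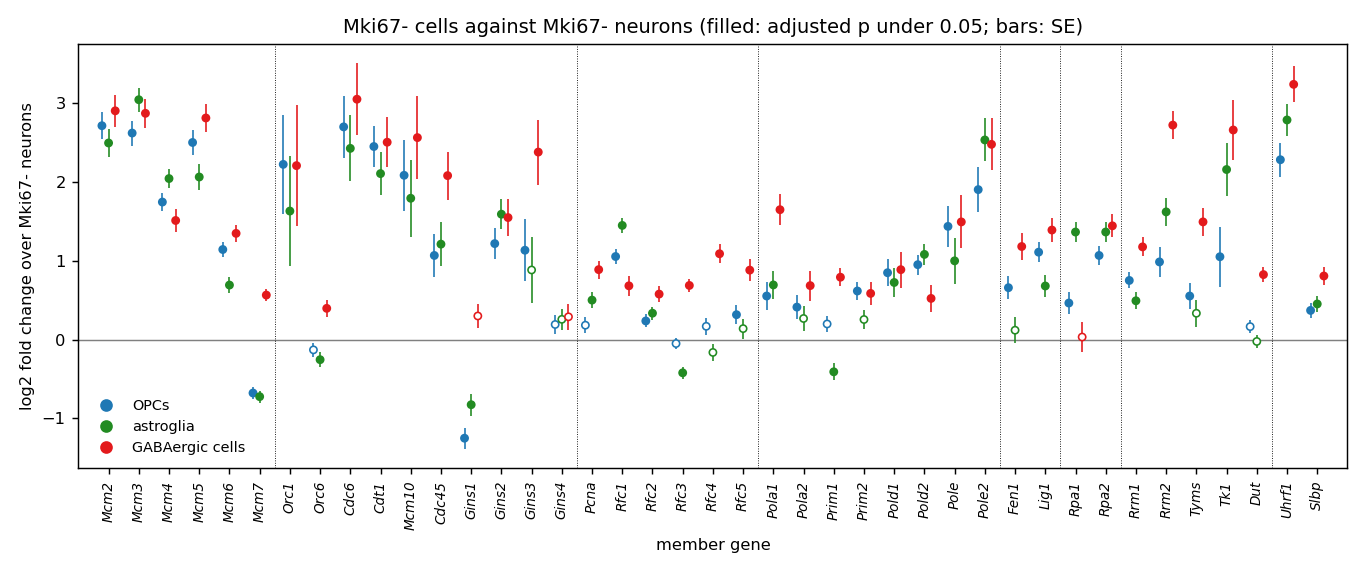
The y axis gives the log2 fold change of Mki67- OPCs, astroglia and GABAergic cells over Mki67- neurons for the 41 members (x axis, in order of role), with SE bars and filled points where the adjusted p was under 0.05. Mcm2, Mcm3, Mcm5, Cdc6, Cdt1 and Uhrf1 lie above 2 in all 3 classes, while Mcm7 and Gins1 lie below 0 in OPCs and astroglia.

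Among Mki67+ cells, GABAergic cells stood above both glial classes. Mki67+ OPCs had 29 members lower and 1 higher than Mki67+ GABAergic cells (29.7% and 27.8% of all genes), and 18 were lower under each of 3 scalings, namely TMM, total counts and DESeq2's size factors. The 1 called higher was not higher under all 3. The largest were Rrm2 at -1.20 (SE 0.07), Gins1 at -1.17 (SE 0.10), Dut at -1.16 (SE 0.06) and Mcm7 at -1.10 (SE 0.06), followed by Pola1 at -1.08, Tyms at -0.99, Slbp at -0.94 and Cdc45 at -0.81. Dut was at 309.3 and 297.0 CPM in Mki67+ OPCs and 594.3 and 544.4 CPM in Mki67+ GABAergic cells. Helicase genes differed little apart from Mcm7, with a median of -0.15. Mki67+ astroglia had 26 members lower and 7 higher than Mki67+ GABAergic cells (23.8% and 30.6% of all genes), 23 and 4 of them under all 3 scalings. The 8 largest were all lower, from -0.96 for Cdc45 and -0.88 for Cdt1 through Mcm7, Dut, Fen1, Gins1 and Prim1 to -0.72 for Rrm2. The 4 were Mcm4, Rfc1, Pold2 and Rpa1, with Rpa1 at 0.59 (SE 0.10).

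The G2 and mitosis sum moved with these differences. It was 3189 ± 139 CPM in Mki67+ OPCs, 3883 ± 48.3 CPM in Mki67+ astroglia and 6581 ± 68.3 CPM in Mki67+ GABAergic cells. The ratio of the member sum to it was 1.22 ± 0.0360, 0.958 ± 0.0153 and 0.741 ± 0.0330. Mki67+ GABAergic cells thus had the highest member sum of the 3 and the lowest ratio to mitotic genes. The part of the mix of cycle phases in these differences was not tested.

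Between Mki67+ OPCs and Mki67+ astroglia most calls depended on the scaling. With TMM, 6 members were higher and 21 lower in OPCs (21.8% and 33.3% of all genes). With total-count scaling 15 were higher and 3 lower, and with DESeq2 7 and 4. Of the 21 that were lower with TMM, 3 were lower, 18 not called and 0 higher with total counts. The largest of the 21 were Tk1 at -0.55, Rrm2 at -0.49, Rpa1 at -0.44, Pola1 at -0.42 and Mcm3 at -0.41. The same step changed the split over all genes from 3235 higher and 4944 lower to 5175 and 2825, and moved the median log2 fold change of all genes from -0.10 to 0.14. Mcm5, Mcm6, Cdt1, Prim2 and Fen1 were higher and Rpa1 lower in OPCs under all 3. Cdt1 was at 37.0 and 35.2 CPM in Mki67+ OPCs and 19.8 and 22.3 CPM in Mki67+ astroglia, a log2 fold change of 0.53 (SE 0.11). Mki67+ astroglia also had less of their own marker set than Mki67- astroglia, 2642 and 3190 against 5380 and 5828 CPM, and OPC markers at 1245 and 1198 CPM. The part of that in these differences was not tested.

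Mki67+ Eomes progenitors exceeded Mki67+ astroglia in 10 members and were lower in 2 (7.45% and 15.0% of all genes). All 10 stayed higher under the 3 scalings and neither of the 2, Rpa1 and Mcm4, stayed lower. On thinned counts 1 of the 10 calls was left, and genes called higher fell from 1107 of 14866 tested to 250 of 12453. Dut led, at 855.5 and 968.4 CPM against 332.1 and 308.5 CPM (log2 fold change 1.30, SE 0.09, edgeR adjusted p = 4.24e-14), then Cdt1 at 0.97 (SE 0.29) and Cdc45 at 0.82 (SE 0.26). Cdc45 had the opposite sign on thinned counts, -0.18. Mcm6 came next, at 212.6 and 207.2 CPM against 109.9 and 115.7 CPM (0.67, SE 0.13).

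Whether the Mki67 difference itself varied between classes was tested with interaction terms. Against GABAergic cells, the difference in OPCs was larger in 3 members and smaller in 2, close to the shares of all genes (5.12% and 6.70%). Tk1 showed a difference larger by 1.03 (SE 0.25, edgeR adjusted p = 0.00406) and Dut a value of -0.50 (SE 0.10, edgeR adjusted p = 0.000461), and both calls held under all 3 scalings. On thinned counts Tk1 was not called (0.65, adjusted p = 0.549), and without the library block Dut was not (-0.50, adjusted p = 0.124). The difference in astroglia was larger in 10 members and smaller in 2 (7.65% and 5.67% of all genes). Mcm6, Mcm7, Rfc3, Rfc4 and Rfc5 were larger and Rfc1 and Rpa1 smaller under all 3 scalings, among them Rfc4 by 0.74 (SE 0.12). Some settings gave few calls, with 1 larger and none smaller on thinned counts, none and 1 with gates at 1 UMI, and 1 and 1 without the library block. With Mki67+ at 5 UMIs more members were called larger. With the main settings no difference was called for the remaining 36 and 29 members.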

How the data were processed

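The members, gene lists, gates and tests were chosen with earlier results of these data known. The authors deposited whole-number UMI counts for each gene in each barcode, written by Cell Ranger 6.0.2 after its cell calling, per the file headers. Also named, without a role, are mm10, R 4.1.0 and Seurat 4.1.0, per the submitters' processing notes. The annotation release and strand setting are given by no source used here.

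The 2 libraries held 13858 and 14513 barcodes with 97091962 and 108903409 UMIs. Removed were 441 and 657 barcodes with fewer than 500 genes, then 2189 and 2891 with over 10% mitochondrial UMIs. Gates were at least 2 UMIs, or 3 for Slc1a3 with no other gate passed. Eomes progenitors also had fewer than 5 Reln UMIs. Slc1a3 was ignored for OPCs, GABAergic cells, microglia and Eomes progenitors, and Neurod2 and Neurod6 were ignored for Eomes progenitors. The 572 and 654 cells passing several gates beyond these exceptions were left out, as were 1613 and 1293 that passed none. Scrublet in scanpy 1.11.5 (expected rate 10%) marked 7.38% and 7.37% of cells, which were kept except in an alternative.

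Cells are not replicates, so counts were summed per library, class and Mki67 state into 24 sums. They were tested with edgeR 4.0.16 (TMM, filterByExpr, quasi-likelihood, the library as a block because each library's sums share 1 sorted cell suspension, 11 residual degrees of freedom) in R 4.3.3, leaving out gate genes and Mki67. Groups needed 20 cells in each library. DESeq2 1.42.0, other gates, Mki67 thresholds, doublet removal, depth limits, thinning, total-count scaling and no count filter were alternatives. Known changes were simulated in Mki67+ OPCs, at genes with enough counts. The test recovered every 2-fold and 4-fold change there in the right direction. Smaller changes were simulated too, but their recovery is not given here, so calls of smaller size rest on no such check. The simulated counts had a fixed spread and no shift between libraries. The small classes, genes with few counts and the interaction terms were not checked this way. CPM of a sum carries counting error and the spread of 2 libraries.

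Named in the Mki67 comparisons were the 2 members per role with the highest level in Mki67+ OPCs and any member called against the rest. In other comparisons they were drawn from the 8 largest differences that were called with 1 direction in both libraries, and, of other replication genes, the 4 largest changes in OPCs. Further members were named where a result turned on them. Gene positions are from GENCODE vM21 on GRCm38, promoters from RefSeq on GRCm38.p6.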

Additional observations from a re-analysis of the deposited data

Results flagged for a closer look

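The Mki67 difference varied between classes in 17 calls on 16 members by edgeR's interaction test (adjusted p under 0.05), each given as a log2 value. Of all genes, 5.12% were called larger and 6.70% smaller for OPCs, and 7.65% and 5.67% for astroglia. The calls for OPCs were close in share to those of all genes. In OPCs against GABAergic cells the difference was larger for Tk1 by 1.03, Gins2 by 0.645 and Rrm2 by 0.532. It was smaller for Dut, at -0.50, and Slbp, at -0.504.

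In astroglia against GABAergic cells it was larger for the helicase genes Mcm5 by 0.384, Mcm6 by 0.458 and Mcm7 by 0.454, and for the GINS genes Gins2 by 0.608 and Gins3 by 1.02. The clamp loader genes Rfc3, Rfc4 and Rfc5 were larger by 0.471, 0.738 and 0.518, whereas Rfc1, the large subunit of the same loader, stood at -0.445. Prim1 was larger by 0.425 and Tyms by 0.517, and Rpa1 stood at -0.739. Under total-count scaling and DESeq2 as well, 2 of the 5 calls for OPCs and 7 of the 12 for astroglia held. Other settings gave fewer calls: in the order larger and smaller, thinned counts gave 0 and 1 for OPCs and 1 and 0 for astroglia, and the fit without the library block gave 1 and 0 and 1 and 1. With gates at 1 UMI there were 1 and 3 for OPCs and 0 and 1 for astroglia.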

How the results depend on the processing

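All counts are of members called in the comparison named. On counts thinned to 2000 UMIs, the number higher in Mki67+ cells was 16 in Eomes progenitors, 0 in neurons and 2 in microglia, against 39, 6 and 16. Thinning also gave 0 members lower in Mki67+ OPCs than in Mki67+ astroglia, 0 higher and 17 lower than in Mki67+ GABAergic cells, 3 higher in Mki67+ astroglia than in Mki67+ GABAergic cells, and 1 higher and 0 lower in Mki67+ Eomes progenitors than in Mki67+ astroglia. It left 16 higher in Mki67- astroglia than in Mki67- neurons and 4 lower in Mki67- OPCs than in Mki67- astroglia. Of the interactions, 0 and 1 were left for OPCs and 1 and 0 for astroglia, in the order larger and smaller. Thinning reversed 6 single values: Lig1 in neurons (-0.434), Fen1 in microglia (-0.490), Pola1 in Mki67+ OPCs against astroglia (0.130), Cdc45 and Tyms in Mki67+ Eomes progenitors against astroglia (-0.182 and -0.0696) and the astroglial interaction of Gins3 (-0.183). Thinning keeps fewer UMIs and tested 40 of the 41 members. Calls over all genes fell too. Those higher in Mki67+ cells went from 933 to 200 in Eomes progenitors, 391 to 19 in neurons and 249 to 47 in microglia.

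With gates at 1 UMI, 28 were higher in Mki67+ microglia, and Mki67+ OPCs had 10 higher and 5 lower than astroglia, and 5 and 18 against GABAergic cells. Astroglia then had 4 higher than GABAergic cells, Eomes progenitors 0 lower than astroglia, and the interactions had 1 larger for OPCs, and 0 larger and 1 smaller for astroglia. With gates at 3 UMIs, 1 was higher in neurons, 2 higher in Mki67+ OPCs than in GABAergic cells and 8 larger in the OPC interaction. With Mki67+ set at 2 UMIs, 6 were higher in Mki67+ OPCs than in GABAergic cells and 12 were larger in the interaction. At 5 UMIs, chosen after seeing the data, the counts were 6 higher and 17 lower for OPCs, 16 lower for astroglia, and 14 larger and 0 smaller (OPCs) and 25 larger (astroglia) in the interactions.

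Doublet removal gave 10 higher in Mki67+ OPCs than in astroglia and 2 than in GABAergic cells. Keeping cells of 5000 UMIs gave 2 higher in OPCs than in GABAergic cells, 1 lower in Eomes progenitors than in astroglia and 7 larger in the OPC interaction, and no count filter gave 2 higher in OPCs than in GABAergic cells. DESeq2 called 11 higher in neurons, 4 lower in Mki67+ OPCs than in astroglia, 2 higher than in GABAergic cells, 4 higher in astroglia than in GABAergic cells, 0 lower in Eomes progenitors than in astroglia, 1 larger and 1 smaller for OPCs, and 5 larger for astroglia. Total-count scaling, chosen after seeing the data, gave 15 higher and 3 lower in Mki67+ OPCs than in astroglia, 6 and 18 against GABAergic cells, 0 lower in Eomes progenitors than in astroglia, 21 higher in Mki67- OPCs than in Mki67- astroglia and 9 larger in the OPC interaction. It also changed the split over all genes in Mki67+ OPCs against GABAergic cells from 4128 higher and 4418 lower to 5782 and 2685.

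With no replicate block, Mki67+ OPCs had 1 higher and 13 lower than astroglia and 0 higher than GABAergic cells, and the interactions had 1 larger and 0 smaller for OPCs and 1 and 1 for astroglia. No other count of calls moved by over 1.5 times without the block.

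The ratio of the summed level was 3.04 in OPCs and 3.30 in astroglia with Mki67+ at 2 UMIs, and 2.36 in microglia. At 5 UMIs it was 3.06 in OPCs, 3.34 in astroglia and 2.59 in GABAergic cells. It was 2.90 in OPCs without doublets, 2.89 in astroglia and 2.50 in GABAergic cells with gates at 3 UMIs, and 2.92 in GABAergic cells and 2.69 in microglia with gates at 1 UMI. Cells of 5000 UMIs gave 2.87 in astroglia and 2.44 in GABAergic cells, and thinning 2.94 in astroglia, 2.90 in GABAergic cells and 1.22 in neurons. Leaving out a library leaves no residual degrees of freedom, so no counts of calls could be given. For the ratios it gave 2.69 to 2.84 in OPCs, 2.90 to 2.92 in astroglia, 2.61 to 2.69 in GABAergic cells, 3.65 to 5.81 in Eomes progenitors, 1.49 to 1.89 in neurons and 1.75 to 2.24 in microglia. Mki67+ neurons, Eomes progenitors and microglia, with 25 to 46 cells per library, had the fewest cells, and there a member that was not called may still differ. The Mki67+ Eomes progenitors could not be fitted without doublets, nor with Mki67+ at 2 or 5 UMIs. Mki67+ neurons could not be fitted at 2 or 5 UMIs, nor Mki67+ microglia at 5. The cause of these changes was not tested.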

Other observations

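Mki67 itself was detected in unequal shares of the classes. At 2000 UMIs per cell, 25.2% and 29.0% of GABAergic cells, 9.38% and 10.6% of OPCs, 11.4% and 11.2% of astroglia, 11.0% and 12.8% of microglia and 11.0% and 11.0% of Eomes progenitors had a Mki67 UMI in replicates 1 and 2. In neurons the shares were 1.43% (exact Clopper-Pearson 95% interval 0.717% to 2.55%) and 1.29% (0.620% to 2.36%). These intervals cover counting error only. The G2 and mitosis sum was 771 and 864 CPM in Mki67+ neurons and 112 and 114 CPM in Mki67- neurons. The shares in neurons are therefore not taken as a background of detection. Without thinning, 38.9% and 41.7% of GABAergic cells and 18.2% and 19.8% of OPCs had a Mki67 UMI.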
